A study of Homo sapiens with 12 samples.

Results

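The cytosolic ribosomal protein genes are the rows of the deposited count table whose symbol is RPLP0, RPLP1, RPLP2 or RPSA, or starts with RPL or RPS and a digit, leaving out the RPS6 kinases, RPS27L, RPS19BP1 and the RPS4Y genes. This symbol rule took 88 of the 19901 genes in the table, and 80 of them, 49 of the large subunit and 31 of the small subunit, reached 10 or more counts in 6 or more of 12 libraries and are the members described here. The rule used symbols and count totals over all groups, and no difference between groups. The measurements were read counts from RNA-Seq of total RNA depleted of ribosomal RNA, with ERCC spike-in transcripts added, from HCT116, a human colorectal carcinoma line. The cells carried the genotype KAP1_dTAG_CloneD5, in which KAP1, the protein product of TRIM28, bears a tag that lets the small molecule dTAG direct it to degradation, and the line is 1 clone. All 12 cultures were held for 48 h in medium lacking serum, and for the last 8 h of that time received either dTAG or the solvent DMSO. Libraries then came from cells given serum for 30 min or from cells given none, so that 4 groups of 3 replicates resulted. DMSO-S0 and dTAG-S0 are the groups that got no serum, and DMSO-S30 and dTAG-S30 those that did. The contrast of dTAG with DMSO is called loss of KAP1 below, though the protein is not measured by RNA-Seq. None of the 12 libraries is from cells without the tag, so an effect of dTAG itself cannot be told apart from one of KAP1.

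Ribosomal proteins are the protein part of the small and large subunits of the cytosolic ribosome, and cells make them in large and balanced amounts. Their transcripts are long-lived and typically begin with a C followed by a run of pyrimidines, the 5′ terminal oligopyrimidine (TOP) sequence, through which growth factor signalling by the kinase mTOR sets how well they are translated. That control acts on translation, which RNA-Seq does not measure. The comparisons asked how far their levels moved within 30 min of serum, and whether acute loss of KAP1 altered the levels or the response.

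Of the 80 members, 76 had a fold change under 1.2 in either direction with serum in DMSO-treated cells, and 76 had one in dTAG-treated cells, against 73.0% and 76.5% of all 13093 genes tested. RPL21 rose 1.38-fold and 1.35-fold in the 2 treatments, and the readthrough row RPS10-NUDT3 fell by 50.9% in the former and fell by 50.2% in the latter. Loss of KAP1 left no member past the threshold without serum or with it, where 1.47% and 1.25% of all genes passed. With no count filter 11 members passed without serum, all lower, against 1.58% of all genes. With the filter, 64 of the 80 log2 fold changes lay below 0 without serum and 74 with serum, against 52.4% and 50.3% of all genes. Both counts moved with single libraries. The first was 38, with a median of 0.01, when DMSO-S0 replicate 2 was left out. It was 69, with a median of -0.14, when DMSO-S0 replicate 3 was left out. The second was 60, with a median of -0.04, when dTAG-S30 replicate 1 was left out.

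Libraries held 20537682 to 26278707 counts, of which 7.97% to 9.37% were ERCC reads. The epithelial markers EPCAM, KRT8, KRT18, KRT19 and CDH1 had 1606 to 13216 counts in every library. Of the 9 leukocyte, fibroblast and endothelial markers, 8 had at most 55 counts, and COL1A1 had 250 to 348 counts without serum and 1468 to 1789 with serum; its part in the results below was not tested. FOS, an immediate early gene, went from 5.48 ± 0.82 CPM (counts relative to the scaled library size) in DMSO-S0 to 485.2 ± 43.9 in DMSO-S30 (SD, n = 3) and from 4.92 ± 0.25 in dTAG-S0 to 391.4 ± 16.9 in dTAG-S30. TRIM28 was at 96.9 ± 4.74 CPM in DMSO-S0 and 92.6 ± 6.27 in dTAG-S0 (SD, n = 3), and since dTAG acts on the protein, its transcript does not check the treatment. DMSO-S0 replicates 2 and 3 and dTAG-S30 replicate 1 stood apart from their groups across the members, and the counts of members called, above or below 0 and apart between groups are also given without each of them in the comparisons that use it.

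Promoter windows from RefSeq (GRCh38.p14) were at hand for 64 members. The annotated first base was a C in 46 of them (71.9%), against 11.7% of 10410 tested genes with a window and 4093 of all 27305 windows. A C at the start within an unbroken run of 5 or more C or T bases counted from that base was found in 41 members (64.1%), against 5.33% of the tested genes and 4.04% of all windows. A run of 8 or more C or T bases anywhere in the 30 bases around the start, read on the gene's strand only, was found in 47 members (73.4%) and in 13.4% of the tested genes. The 30-base windows below show 4 of the 5 members that passed the test with serum in either treatment, the small subunit protein gene RPS6, and a pair of paralogs without such a start. RPS10-NUDT3, the fifth, is named only. The 16th base is the annotated start, and capitals mark the longest run of C and T bases.
RPL21: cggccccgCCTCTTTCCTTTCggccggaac
RPLP1: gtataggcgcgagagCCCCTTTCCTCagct
RPS27: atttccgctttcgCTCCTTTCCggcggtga
RPL41: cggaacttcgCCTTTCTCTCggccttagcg
RPS6: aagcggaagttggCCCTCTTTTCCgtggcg
RPL26L1: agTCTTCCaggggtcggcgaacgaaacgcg
RPL7L1: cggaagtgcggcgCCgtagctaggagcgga
These windows lie at chr13:27251543-27251572 (plus strand) for RPL21, chr15:69452803-69452832 (plus) for RPLP1, chr1:153990747-153990776 (plus) for RPS27, chr12:56116618-56116647 (plus) for RPL41, chr9:19380222-19380251 (minus) for RPS6, chr5:172958714-172958743 (plus) for RPL26L1 and chr6:42879601-42879630 (plus) for RPL7L1. The first 5 have 9 to 13 pyrimidines in a row across the start, whereas the longest run is 6 in RPL26L1 and 2 in RPL7L1, whose starts are a G. Members with a C and a run of 5 at the start had a median serum log2 fold change of 0.05 in DMSO-treated cells (41 members), and members with any other start had 0.04 (23 members).

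The members took 4.32% to 5.19% of the counts of all genes. For DMSO-S0 the share was 4.91%, 5.19% and 4.59% in replicates 1 to 3, and for DMSO-S30 it was 4.76%, 4.83% and 4.79%. Values of 4.61%, 4.66% and 4.68% were found for dTAG-S0, and of 4.32%, 4.65% and 4.76% for dTAG-S30. The DMSO-S0 libraries spanned all DMSO-S30 values and all but the lowest of the dTAG values, and the log2 ratio of the shares between groups was between -0.08 and -0.02 in the 4 comparisons, beside a pooled within-group SD of 0.05 to 0.06. Relative to the ERCC counts the serum ratio was above 0 instead, at 0.09 in DMSO-treated and 0.06 in dTAG-treated cells. The ERCC transcripts were added to a fixed mass of RNA, so this ratio measures neither the number of cells nor the RNA per cell, and in bulk RNA fewer cells of a type and less RNA per cell cannot be told apart.

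Levels of the members differed widely. Because counts were taken over whole genes, introns included, levels between genes are given as CPM per kb of gene, and beside it per kb of the MANE Select transcript of GENCODE v44 where 1 exists (76 members). Per kb of gene, RPS6, the small subunit protein that S6 kinases phosphorylate, was the highest at 427.0 CPM, followed by RPL8 at 411.2 and RPS18 at 309.4, and the median member was at 72.5. The lowest were the readthrough rows RPL36A-HNRNPH2, RPL17-C18orf32 and RPS10-NUDT3, at 0.205, 0.155 and 0.038 CPM per kb of gene. Per kb of transcript, RPL30 (2869), RPS18 (2537) and RPS24 (2451) led, and RPS28 (6.27), RPS26 (12.5), RPL26L1 (27.1) and RPL7L1 (33.1) stood last, in CPM. RPS28 and RPS26 encode standard parts of the small subunit, while RPL26L1 and RPL7L1 are paralogs of RPL26 and RPL7. How reads that map to several places were counted is not given in the sources used here, and the members have 1456 processed pseudogenes in GENCODE v44 with a median of 9.5 each. Spearman's rho between the number of pseudogenes and the level per kb of transcript was -0.02 across 76 members, which share the same libraries. Between the number of pseudogenes and the serum log2 fold change in DMSO-treated cells it was -0.27. Among members that passed the test with serum, RPL21, RPS27, RPL41 and RPLP1 were at 75.2, 73.3, 61.4 and 279.2 CPM per kb of transcript, against a median of 506.

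**Figure D1:**
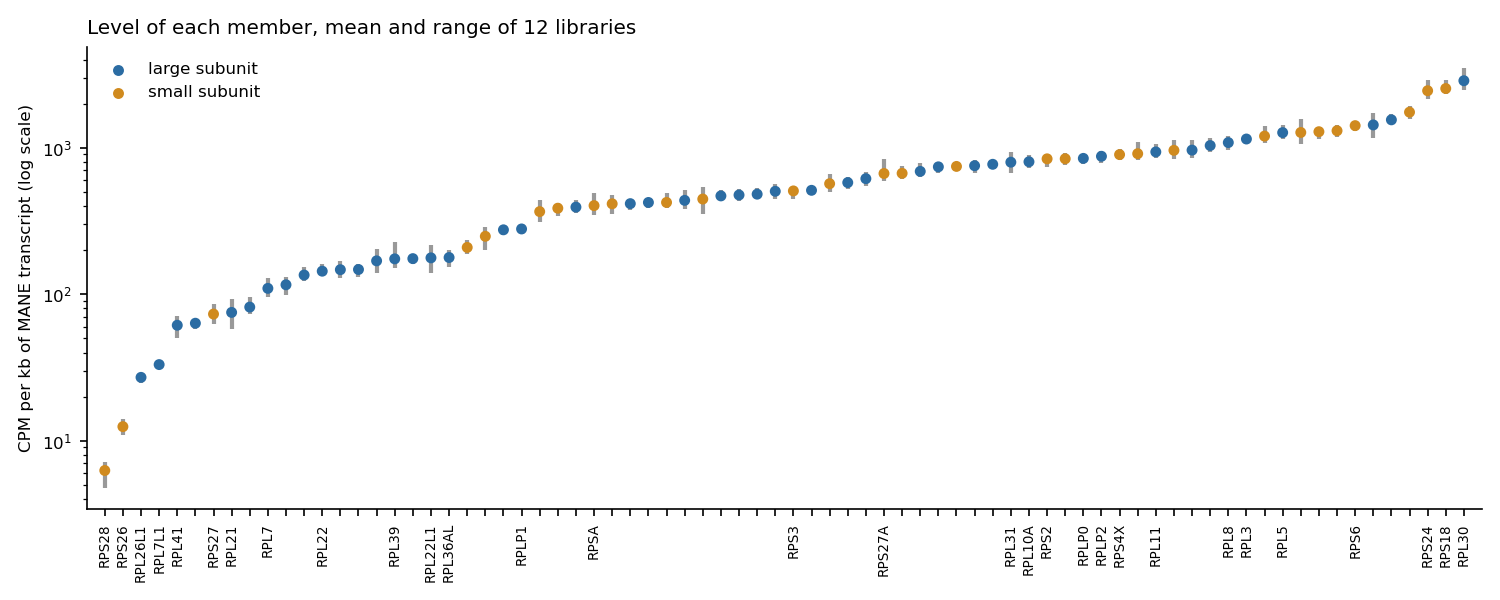
Each point is the mean CPM per kb of MANE Select transcript of 1 member over 12 libraries on a log scale, and grey bars run from the lowest to the highest library. Axis labels are given for the members described by name. RPS28 is lowest, at the left end, with 6.27 and RPL30 highest, at the right end, with 2869, and most bars are short beside the steps between distant members.

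Of the 88 rows, 8 did not pass the count filter. RPL3L, RPL10L and RPL39L, paralogs that are chiefly known from muscle and testis, had at most 14 counts in any library. RPS10, RPL17, RPL26 and RPL36A, which encode standard ribosomal proteins, had at most 7 counts in any library, and 96.5% to 99.4% of each interval is covered by another row on the same strand. RPS10 lies almost wholly within the row RPS10-NUDT3, RPL17 within RPL17-C18orf32 and RPL36A within RPL36A-HNRNPH2, and how a read inside both rows was counted is not given in the sources used here. Of the members, 33 overlap another row, 6 on the same strand and 29 on the opposite strand. RPL32, RPL15, RPL35A and RPS4X are wholly covered by a row on the opposite strand and had mean counts of 17830, 19758, 18438 and 28669. For an overlap on the same strand, counts could hold reads of a neighbour or lack shared ones.

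Serum in DMSO-treated cells raised 3 members and lowered 1 by edgeR's quasi-likelihood test with Benjamini-Hochberg adjustment over all genes, against 27.3% of all genes tested called (9.39% higher and 17.9% lower). The median log2 fold change of the 80 members was 0.04, with 53 above 0, and that of all genes was -0.07, with 36.4% above 0. The SE was 0.07 at the median member and 0.08 at the median gene. The 49 large subunit members had a median of 0.05 and the 31 small subunit members 0.02. In dTAG-treated cells 2 members rose and 1 fell, against 25.5% of all genes called (9.30% higher and 16.2% lower), and the medians were 0.02 for the members and -0.06 for all genes. All libraries with serum were above all without for 14 members with DMSO and for 3 with dTAG, against 13.8% and 12.6% of all genes, and below them for 1 member each, against 30.6% and 24.9%. These counts moved with single libraries. Without DMSO-S0 replicate 2, 9 members rose and 1 fell with serum in DMSO-treated cells, against 22.2% of all genes called. Above 0 lay 75 members, against 37.9% of all genes. Apart upward (every library with serum above every one without) were 31, against 16.2% of all genes. Without DMSO-S0 replicate 3, 1 rose and 5 fell, against 20.3% of all genes called, and 32 lay above 0, against 36.7%. In that fit 14 were apart upward and 21 downward, against 16.3% and 38.3% of all genes. Without dTAG-S30 replicate 1, 2 rose and 1 fell in dTAG-treated cells, against 24.5% of all genes called. Above 0 lay 65 in place of 49, against 39.25% of all genes, and 35 were apart upward, against 19.4%. The 95% interval lay within 1.5-fold in either direction for 76 members with DMSO and for 77 with dTAG.

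**Figure D2:**
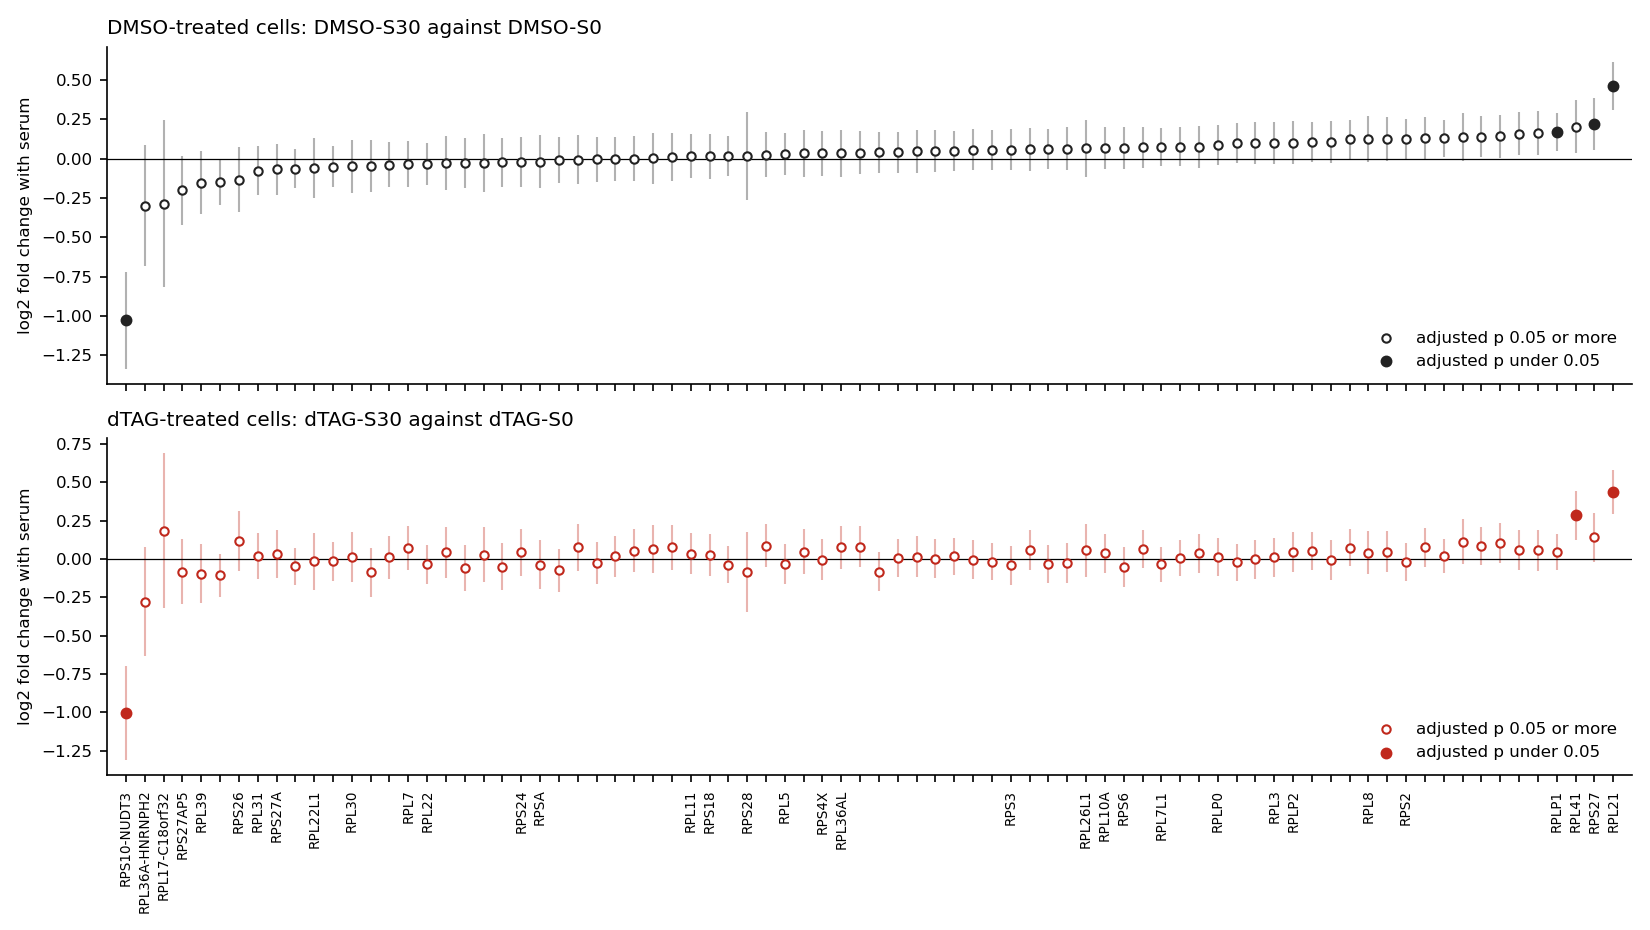
Points are the log2 fold change of each of the 80 members with serum in DMSO-treated (top) and dTAG-treated cells (bottom), in the order of the top panel, with 95% intervals as lines, filled points at an adjusted p under 0.05 and axis labels for the members described by name. RPS10-NUDT3 at the left end and RPL21 at the right end stand apart from the rest in both panels, and the other filled points are RPS27 and RPLP1 at the top and RPL41 at the bottom.

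RPL21 encodes a protein of the large subunit, and its row (chr13:27251309-27256691, plus strand, hg38) overlaps no other row. Its level was 34.2, 41.0 and 35.4 CPM in DMSO-S0 and 52.3, 51.2 and 52.2 in DMSO-S30. With dTAG the values were 33.0, 35.5 and 35.8 CPM without serum and, with serum, 48.3, 48.0 and 43.7. All 6 libraries with serum were above all 6 without, in both treatments. The log2 fold change was 0.46 ± 0.07 (SE, edgeR adjusted p = 2.2e-05) in DMSO-treated and 0.44 ± 0.07 (SE, edgeR adjusted p = 3.3e-05) in dTAG-treated cells, the largest rise among the members in each. RPL21 has 133 processed pseudogenes, the most of any member, and the introns of its gene hold SNORD102 and SNORA27. Whether reads of these copies or small RNAs moved with serum was not tested.

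RPS10-NUDT3 is the annotated readthrough of RPS10 and its neighbour NUDT3, a diphosphoinositol polyphosphate phosphohydrolase (chr6:34284887-34426071, minus strand). Only 17.6% of its interval, 24779 bp at chr6:34392675-34417453 between the 2 genes, is free of other rows on its strand. Its level was 7.5, 8.0 and 7.7 CPM in DMSO-S0 and 3.9, 3.6 and 4.0 in DMSO-S30. With dTAG the values were 7.1, 6.4 and 6.6 CPM without serum and, with serum, 3.2, 2.7 and 4.0. Every library with serum was below every library without. The log2 fold change was -1.03 ± 0.15 (SE, edgeR adjusted p = 6.8e-06) in DMSO-treated and -1.005 ± 0.15 (SE, edgeR adjusted p = 8.5e-06) in dTAG-treated cells. NUDT3 itself was at 80.2 ± 0.87 CPM in DMSO-S0 and 84.1 ± 4.33 in DMSO-S30 (SD, n = 3), a log2 serum effect of 0.08 (edgeR adjusted p = 0.37), and RPS10 had at most 3 counts in any library. The level of the RPS10 messenger can be read from neither row, and whether the fall lies in the free stretch was not tested.

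The other readthrough rows did not pass the test. RPL36A-HNRNPH2 had log2 fold changes of -0.30 and -0.28 with serum in the 2 treatments (edgeR adjusted p = 0.24 and 0.25) at 3.5 to 5.5 CPM. RPL17-C18orf32 had -0.29 and 0.18 (edgeR adjusted p = 0.44 and 0.63) at 1.2 to 2.1 CPM, the lowest CPM of any member. The groups of both rows overlapped in either treatment.

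RPLP1, which with RPLP2 forms the acidic stalk that binds translation factors, was at 310.2, 318.5 and 304.9 CPM in DMSO-S0 and 347.0, 342.2 and 352.6 in DMSO-S30. With dTAG the values were 328.4, 304.2 and 329.1 CPM without serum and, with serum, 310.9, 347.8 and 337.4. The groups were apart in DMSO-treated cells and overlapped in dTAG-treated cells. The log2 fold changes were 0.17 ± 0.06 (SE, edgeR adjusted p = 0.034) and 0.04 (edgeR adjusted p = 0.61), and the difference between them, -0.12, did not pass the test (edgeR adjusted p = 1.0). RPLP0, the base of the stalk, had 0.09 and 0.01 (edgeR adjusted p = 0.30 and 0.89), and RPLP2 0.10 and 0.04 (edgeR adjusted p = 0.27 and 0.66). In DMSO-treated cells RPLP0 passed under 1 of 23 other settings (adjusted p = 0.026 with DESeq2).

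RPS27, a zinc finger protein of the small subunit, was at 27.0, 26.1 and 22.1 CPM in DMSO-S0 and 27.1, 30.2 and 27.4 in DMSO-S30. With dTAG the values were 22.5, 24.9 and 23.1 CPM without serum and, with serum, 25.2, 27.5 and 26.3. The DMSO-S0 and DMSO-S30 values adjoined without overlapping, and so did those with dTAG. Its log2 fold changes were 0.22 ± 0.08 (SE, edgeR adjusted p = 0.043) and 0.14 (edgeR adjusted p = 0.19). The call was lost under 10 of 23 other settings, with adjusted p-values from 0.0098 to 0.29, and that of RPLP1 under 5 of 23, with adjusted p-values from 0.00031 to 0.12.

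RPL41, the shortest of the ribosomal proteins, was at 39.3, 43.2 and 33.8 CPM in DMSO-S0 and 43.0, 47.3 and 43.3 in DMSO-S30. With dTAG the values were 37.3, 37.7 and 37.0 CPM without serum and, with serum, 47.9, 46.4 and 42.4. The DMSO groups overlapped through DMSO-S0 replicate 2, and the dTAG groups did not overlap. The log2 fold changes were 0.20 in DMSO-treated (edgeR adjusted p = 0.063) and, in dTAG-treated cells, 0.29 ± 0.08 (SE, edgeR adjusted p = 0.0077), and their difference of 0.08 did not pass the test (edgeR adjusted p = 1.0). In DMSO-treated cells RPL41 passed the test under 8 of 23 other settings, with edgeR adjusted p = 0.016 with TMM factors and 0.037 with a replicate block and adjusted p = 0.018 with DESeq2, and the range over all 23 was 0.012 to 0.58. In dTAG-treated cells it was lost under 1 of 23, with an adjusted p of 0.058 without dTAG-S30 replicate 1.

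**Figure D3:**
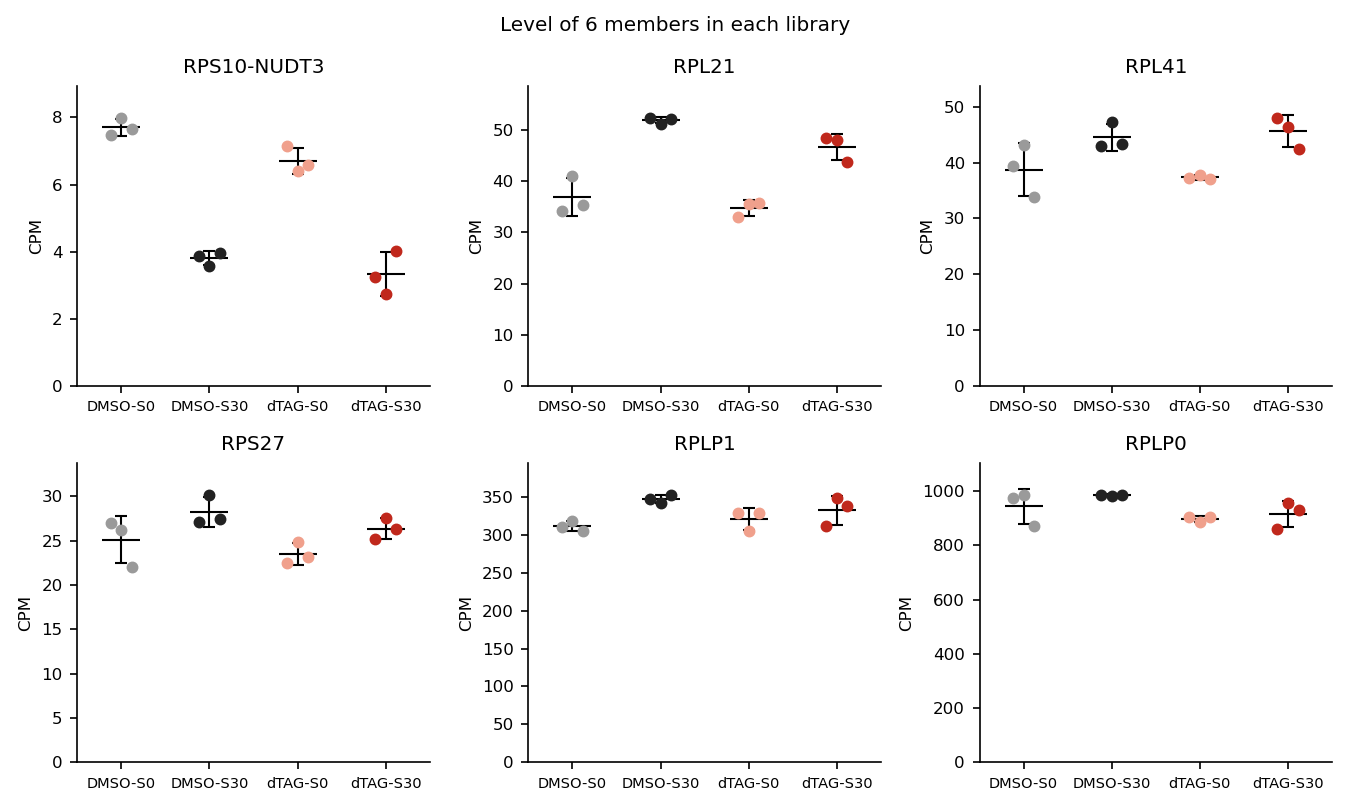
Points are the CPM of 6 members in each library by group, with the mean and SD of 3 libraries in black and each axis starting at 0. The serum groups of RPS10-NUDT3 and RPL21 are apart from the groups without serum in both treatments, while for RPLP0 the groups with and without serum overlap in both treatments, and dTAG-S30 lies below DMSO-S30.

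Members with known further roles did not pass the test with serum under upper-quartile scaling and all 12 libraries. RPL5 and RPL11, which with 5S RNA bind MDM2 when ribosome assembly is disturbed, had serum log2 fold changes of 0.03 and 0.02 in DMSO-treated and -0.03 and 0.04 in dTAG-treated cells. RPS27A, made as a fusion with ubiquitin, had -0.07 and 0.03. RPS6 had 0.07 and -0.05, RPS3, which also acts in DNA repair, 0.06 and -0.04, and RPSA, also known as the laminin receptor, -0.02 and -0.04. RPL3, which reaches toward the peptidyl transferase centre, had 0.10 and 0.01, RPL10A 0.07 and 0.04, RPS4X 0.03 and 0.00, and RPS2 0.13 and -0.02. The edgeR adjusted p-values of these members ran from 0.13 upward. In DMSO-treated cells RPS2 passed under 3 of 23 other settings (adjusted p = 0.024 with TMM factors, 0.029 with median-of-ratios factors and 0.0069 with DESeq2), RPL3 with DESeq2 (adjusted p = 0.016) and RPS27A, lower, without DMSO-S0 replicate 3 (adjusted p = 0.034).

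Of the paralogs, RPL22L1 and RPL7L1 passed the filter together with their standard partners. RPL22L1 was at 337.1 CPM and RPL22 at 296.3 over 12 libraries, and per kb of transcript at 177.2 and 143.7 CPM. Their serum log2 fold changes were -0.06 and -0.03 in DMSO-treated cells and -0.02 and -0.04 in dTAG-treated cells. RPL7L1 was at 149.0 CPM and RPL7 at 135.3, and per kb of transcript at 33.1 and 109.7 CPM, with serum log2 fold changes of 0.07 and -0.03 in DMSO-treated and -0.03 and 0.07 in dTAG-treated cells. RPL26, RPL36A and RPL39L, the partners of the next 3, did not pass the filter. RPL26L1 had 0.07 and 0.06 and RPL36AL 0.04 and 0.08, and RPL39 had -0.15 and -0.10, and none of these passed the test with serum in all 12 libraries. Without DMSO-S0 replicate 3, RPL39 passed, lower, in DMSO-treated cells (edgeR adjusted p = 0.038). RPS27AP5, a row named as a processed copy of RPS27A, was at 32.8 to 52.9 CPM and had -0.20 and -0.08 (edgeR adjusted p = 0.17 and 0.61).

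Loss of KAP1 without serum left no member past the threshold, against 1.47% of all genes (0.962% higher and 0.512% lower), and DESeq2 called none either. At an unadjusted p under 0.05 there were 16 members, all lower in dTAG-S0, and 12.2% of all genes had such a p. All dTAG-S0 libraries lay below all DMSO-S0 libraries for 5 members and above them for none, against 9.23% and 8.5% of all genes. The median log2 fold change of members was -0.06, with 64 of 80 below 0, and that of all genes was -0.01, with 52.4% below 0. The smallest adjusted p was that of RPL31, at 1118, 1215 and 1045 CPM in DMSO-S0 and 872.7, 1043 and 972.1 in dTAG-S0, with a log2 fold change of -0.21 ± 0.07 (SE, edgeR adjusted p = 0.20). RPS27A had -0.21 (edgeR adjusted p = 0.22) and RPL22L1 -0.19 (edgeR adjusted p = 0.39). With no count filter 11 members were called, all lower, against 1.58% of 17734 genes. RPS27A and RPL22L1 were among them (edgeR adjusted p = 0.012 and 0.0078). RPS27A also passed, lower, without DMSO-S0 replicate 3 (edgeR adjusted p = 0.013). Without DMSO-S0 replicate 3, in which the members were low, the median was -0.14 and 69 lay below 0, against 51.7% of all genes. In that fit 2 members were called lower, against 0.787% of all genes called, and 49 were apart downward, against 16.3%. Without DMSO-S0 replicate 2, in which the members were high, the median was 0.01 and 38 lay below 0, against 51.5% of all genes. In that fit none was called, against 0.924% of all genes, and 5 were apart downward, against 15.6%.

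With serum, loss of KAP1 again left no member past the threshold, against 1.25% of all genes (0.611% higher and 0.642% lower), and DESeq2 called none. An unadjusted p under 0.05 was seen for 7 members, all lower, and for 10.5% of all genes. The log2 fold changes were close together, with a median of -0.10, quartiles of -0.12 and -0.08, and 74 of 80 below 0, while all genes had a median of 0.00 with 49.7% above 0. All dTAG-S30 libraries were below all DMSO-S30 libraries for 21 members (26.3%), and 8.10% of all genes were separated in that direction, while 2 members were apart in the other direction against 7.62% of all genes. The 21 include RPLP0, at 986.7, 982.2 and 985.9 CPM in DMSO-S30 and 860.6, 954.8 and 928.7 in dTAG-S30, with -0.13 on the log2 scale (edgeR adjusted p = 0.44). RPS6 went from 2026, 2005 and 2019 CPM to 1790, 1959 and 1857, with -0.12 (edgeR adjusted p = 0.53). Members in 1 library share that library's handling and are not replicates of the treatment, and dTAG-S30 replicate 1 was low across the members. Without it the median was -0.04, the nearest to 0 of all settings, and over the others it lay between -0.11 and -0.08. With this library left out, 60 members lay below 0, against 50.8% of all genes. None was called, against 1.76% of all genes, and 21 were apart downward, against 16.6%.

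The serum effect did not differ between treatments for any member by the interaction test, with 0 calls by edgeR and 0 by DESeq2, none at an unadjusted p under 0.05, and 0.0458% of all genes called. The median interaction was -0.03 on the log2 scale, and the 95% interval lay within 1.5-fold for 79 of 80 members. RPL21 had an interaction of -0.03 and RPS10-NUDT3 of 0.02.

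The members varied together between replicates. Relative to their group mean, 75 of 80 members were higher in DMSO-S0 replicate 2 (median 0.11 on the log2 scale) and 77 were lower in DMSO-S0 replicate 3 (median -0.12), and 75 were lower in dTAG-S30 replicate 1 (median -0.09). All genes were near evenly split in these libraries, with 48.1%, 49.1% and 50.1% above their group mean. In the other 9 libraries the median of the members deviated by at most 0.04. The spread of a single member was no larger than usual, with a median within-group SD of 0.08 against 0.10 for all genes.

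**Figure D4:**
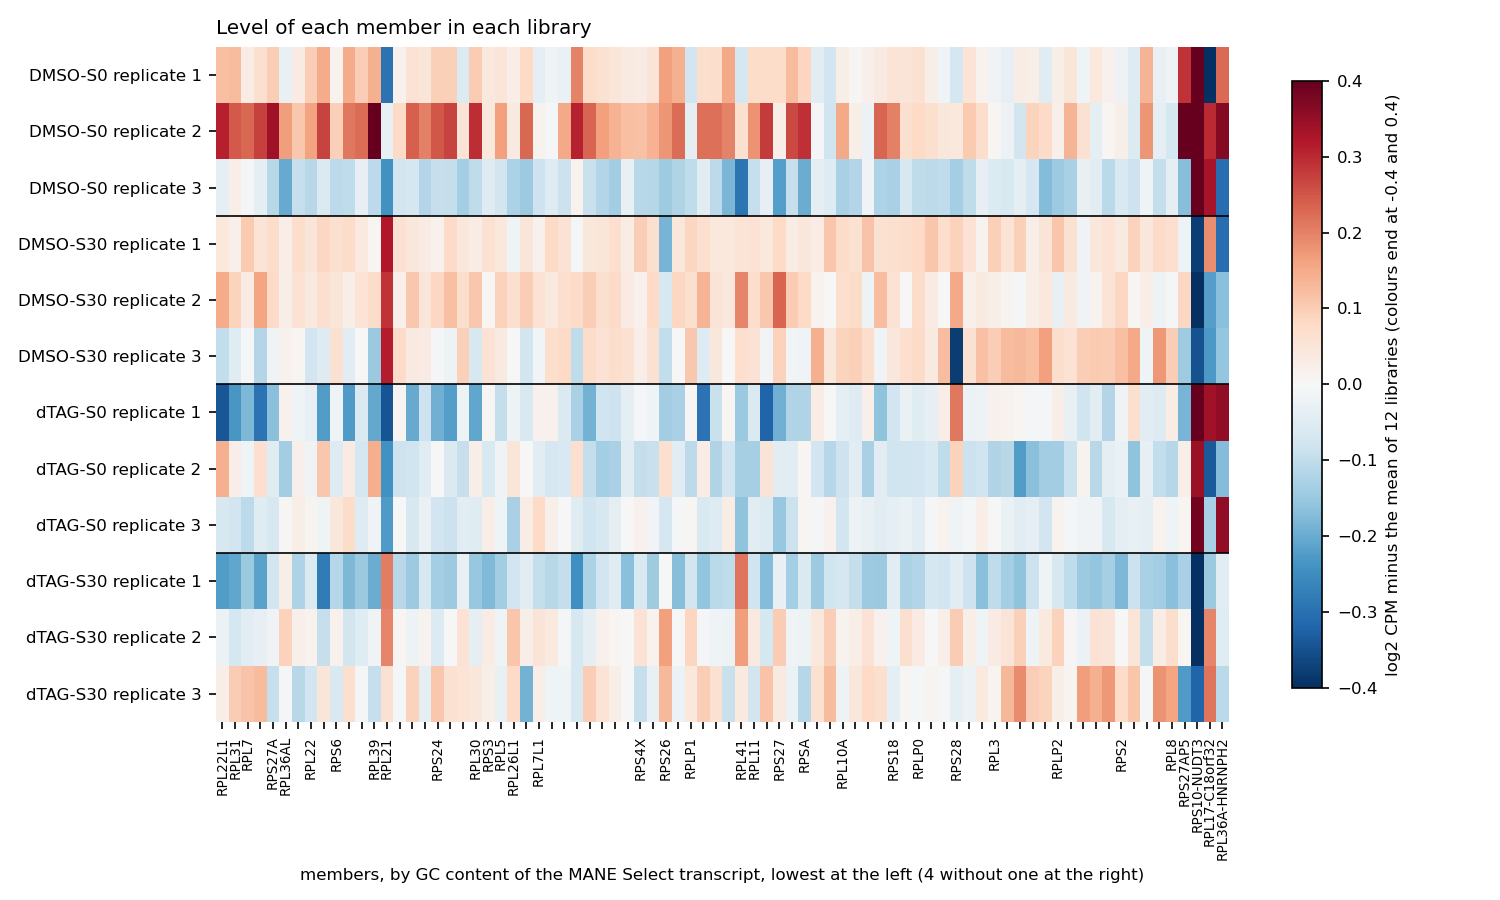
Colours give the log2 CPM of each member in each library minus its mean over 12 libraries, with members ordered by GC content of the transcript, colours ending at -0.4 and 0.4, and axis labels for the members described by name. DMSO-S0 replicate 2 is red and DMSO-S0 replicate 3 and dTAG-S30 replicate 1 are blue over nearly all members, while RPL21 and RPS10-NUDT3 follow serum.

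GC content of the transcript moved with the differences among members. The members ran from 39.9% to 63.6% GC with a median of 47.5%, and all tested genes had a median of 48.8%. Spearman's rho between GC and the serum log2 fold change in DMSO-treated cells was 0.54 across 76 members and 0.18 across 12654 genes, and in dTAG-treated cells it was 0.18 and 0.29. For loss of KAP1 it was 0.48 and 0.05 without serum and 0.31 and 0.20 with serum. Serum in DMSO-treated cells and loss of KAP1 without serum share the DMSO-S0 libraries, and all points share the same libraries. Members under 45% GC had a median serum log2 fold change of -0.02 in DMSO-treated cells (21 members), those from 45% to 50% had 0.03 (27 members) and those of 50% or more had 0.09 (28 members). Within DMSO-S0 replicates 2 and 3 the rho of GC with the deviation of the members was -0.56 and 0.43. RPL21, at 43.1% GC, was the highest of all members. With a GC offset in the fit, 4 members rose and 1 fell in DMSO-treated cells, against 29.02% of all genes called in that fit, with a median of 0.03 for the members.

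**Figure D5:**
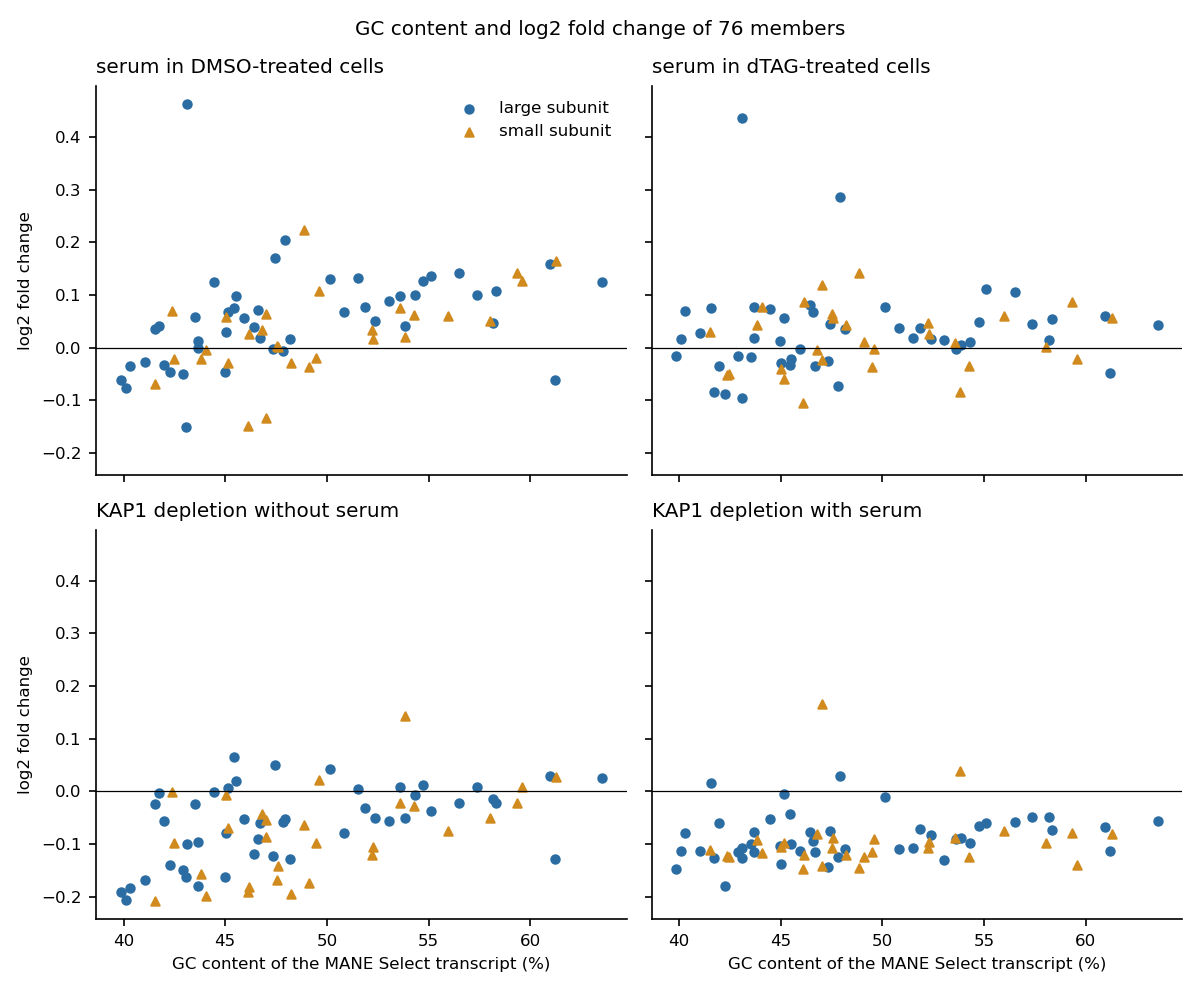
Each point is 1 of 76 members, with the GC content of its MANE Select transcript in percent against its log2 fold change in 4 comparisons. Low-GC members lie lower on the left panels, with a rho of 0.54 for serum in DMSO-treated cells (top) and 0.48 for loss of KAP1 without serum (bottom), and RPL21 is the point near 0.4 to 0.5 at 43.1% GC in both upper panels.

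How many members passed the test with serum in DMSO-treated cells depended on the scaling and on DMSO-S0. With TMM factors 17 members rose and 1 fell, while of 13093 genes 1765 rose and 1108 fell, 21.9% in either direction. The 18 of 80 members called were near that share, but 17 of the 18 were higher, against 61.4% of the calls over all genes. Median-of-ratios factors gave 13 higher and 1 lower, against 22.01% of all genes (1670 higher and 1212 lower). DESeq2, which differs in scaling and in test, gave 21 higher and 1 lower, against 20.9% (1632 higher and 1105 lower). The median of all genes was 0.00, -0.01 and -0.01 under these 3 settings in place of -0.07, and that of the members 0.11, 0.10 and 0.10. The calls over all genes moved too, with 34.4% of them higher under upper-quartile scaling and 61.4% under TMM, and in dTAG-treated cells 36.4% and 61.3%. Without DMSO-S0 replicate 2 there were 10 calls, against 22.2% of all genes, and a median of 0.12. Without DMSO-S0 replicate 3 the median was -0.04. In dTAG-treated cells the members called were 2 higher and 1 lower under both TMM and DESeq2, against 20.5% and 19.4% of all genes. RPL21 and RPS10-NUDT3 passed the test under each of 23 other settings in both treatments.

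Of 27 other tested genes with TOP messengers, which mostly encode translation factors, 1 rose with serum in DMSO-treated cells and none changed in dTAG-treated cells. These shares lie beside 27.3% and 25.5% of all genes. The gene called was FAU, the source of the small subunit protein eS30, at 149.2 ± 12.99 CPM in DMSO-S0 and 166.9 ± 2.44 in DMSO-S30 (SD, n = 3), a rise of 0.18 on the log2 scale (edgeR adjusted p = 0.032), and this call was lost in 4 of 12 fits that left out 1 library. With loss of KAP1 without serum 1 of them was called, HSPA8, a constitutive chaperone, at 0.29 on the log2 scale (edgeR adjusted p = 0.041), and the call was lost in 8 of 12 such fits, with adjusted p-values from 0.0048 to 0.37. Of 106 ribosome biogenesis genes, 14 rose and 12 fell with serum in DMSO-treated cells, and 5 rose and 14 fell in dTAG-treated cells. The shares called, 24.5% and 17.9%, stand beside 27.3% and 25.5% of all genes. TMM factors turned the balance to 26 higher and 4 lower and to 10 higher and 2 lower. RRP12, a pre-ribosome export factor, rose 1.65-fold and 1.57-fold, and POLR1E, a subunit of RNA polymerase I, 1.48-fold and 1.38-fold. PDCD2L fell by 0.56 and 0.34 and WDR74 by 0.52 and 0.35 on the log2 scale, and WDR74 was the 1 gene of this list called with loss of KAP1, with a log2 fold change of -0.50 without serum, a call lost in 4 of 12 fits that left out 1 library and with DESeq2 (adjusted p = 0.30).

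Of 35 genes of mTOR signalling and the MYC network, 5 rose and 8 fell with serum in DMSO-treated cells and 6 rose and 8 fell in dTAG-treated cells, 37.1% and 40.0% of them against 27.3% and 25.5% of all genes, and with TMM factors 7 were higher and 3 lower and 7 higher and 6 lower. RHEB, the GTPase that activates mTORC1, rose 2.63-fold and 2.48-fold, from 67.8 ± 2.74 CPM in DMSO-S0 to 180.6 ± 8.63 in DMSO-S30 (SD, n = 3). MNT, a partner of MAX, rose 2.04-fold and 1.98-fold. EIF4EBP1, which holds back cap-dependent translation, had -0.37 on the log2 scale (edgeR adjusted p = 0.0015) and RRAGB -0.37 (edgeR adjusted p = 0.0020) in DMSO-treated cells, and LAMTOR2 had -0.40 (edgeR adjusted p = 0.0054) and DEPTOR -0.39 (edgeR adjusted p = 0.0083) in dTAG-treated cells. Of 72 mitochondrial ribosomal protein genes, 3 rose and 11 fell in DMSO-treated cells and 13 fell in dTAG-treated cells, 19.4% and 18.1% of them against the same shares of all genes. MRPL55 rose by 0.36 and MRPS12 by 0.30 on the log2 scale in DMSO-treated cells, and MRPS31 fell by 0.39 and MRPS25 by 0.35. In dTAG-treated cells MRPS14 fell by 0.43 and MRPS31 by 0.40. The medians of the mitochondrial set, -0.05 and -0.06, were near those of all genes, and MRPL49 was the 1 member of it called with loss of KAP1, higher by 0.34 without serum.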

How the data were processed

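RNA-Seq was analysed for 12 libraries. According to the study's methods and the submitters' processing notes, the authors checked reads with FastQC 0.11.8, trimmed them with Trim Galore 0.6.4, mapped them to hg38, and counted them over whole protein-coding genes and ERCC transcripts with featureCounts of Subread 1.6.3. The notes also name edgeR 3.40.1. The deposited values are raw read counts without normalization. Strand setting, treatment of multi-mapping and overlapping reads, and the annotation release are not given in the sources used here. No per-sample column was left unused (0 columns). The table held 19901 genes, 19802 with a symbol, and 92 ERCC rows.

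Genes with 10 or more counts in 6 of 12 libraries were tested (13093), and 69 ERCC transcripts passed. Counts were scaled by the upper quartile, 1 factor of unwanted variation was taken from the ERCC transcripts, and the 4 groups and the factor were fitted in edgeR 4.0.16 (R 4.3.3) by the two-sided quasi-likelihood test. DESeq2 1.42.0 was an alternative. P-values were adjusted by Benjamini-Hochberg over all genes, and 0.05 was the threshold. The study's methods call the 3 libraries of each condition biological replicates. Nothing in the labels says that replicates were separate experiments, so p-values measure the spread between these libraries. Total counts of 20537682 to 26278707 set the counting precision. CPM are relative to scaled library sizes, and values per library on the log2 scale used a prior count of 2. Reads are not unique molecules, so errors leave out amplification. The script was tested on simulated data.

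The members, gene lists and rules were chosen with earlier results of these data known. The named genes were, for each comparison, the 3 most positive and 3 most negative among called members, the 3 highest and 3 lowest per kb of gene, members set by role, paralogs and readthrough rows, and for related lists the 2 most positive and 2 most negative among called genes. RPL30, RPS24, RPS28, RPS26 and RPL31 were named after their values were seen. RPL7L1 and RPL26L1 windows were picked as contrasts after their sequences were seen. Gene features came from GENCODE v44 and start windows from RefSeq. Rows were left out of the text's totals only by the count filter, and 1 row that did not pass it is not reported here by name. Alternatives were TMM, median-of-ratios and ERCC scaling, no or 2 ERCC factors, no count filter, a likelihood ratio test, DESeq2, a replicate block, 2-group fits and leaving out each library. A GC offset, members without readthrough rows and RPS27AP5, and counts above or below 0 and of groups that do not overlap without each of 3 libraries, were added after seeing the data.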

Additional observations from a re-analysis of the deposited data

How the results depend on the processing

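Alternatives moved the number of members called mainly for serum in DMSO-treated cells. In place of 4 calls, against 27.3% of all genes, there were 18 with TMM factors (against 21.9%) and 14 with median-of-ratios factors (against 22.01%). There were 22 with DESeq2 and 8 with no count filter, against 20.9% of all genes in both, and 9 with 2 ERCC factors. Leaving out each library in turn gave 2 to 10 calls. The median log2 fold change of 0.04 was 0.11 with TMM factors and -0.0383 to 0.12 when leaving out a library. DMSO-S0 replicate 2 (10 calls without it) moved the count most. There were 2 calls without DMSO-S30 replicate 3, dTAG-S0 replicate 3 or dTAG-S30 replicate 3. Without DMSO-S0 replicate 3 there were 1 higher and 5 lower. In dTAG-treated cells the 3 calls became 7 in a fit of only the 2 groups. Leaving out a library gave 3 to 5 (5 without DMSO-S0 replicate 1). Shares of all genes are not given here for 2 ERCC factors, the 2-group fit or the fit without DMSO-S0 replicate 1. For loss of KAP1 without serum, 11 members were called lower with no count filter, against 1.58% of all genes. Leaving out a library gave 0 to 2 calls (2 without DMSO-S0 replicate 3, against 0.787% of all genes). The median of -0.06 ran from -0.14 to 0.00571. No setting gave a call for loss of KAP1 with serum or for the interaction, whose median ran from -0.10 to 0.0563 over the left-out libraries. The log2 ratio of the members' share of counts, -0.03 and -0.02 with serum in DMSO-treated and dTAG-treated cells, was 0.0887 and 0.0590 relative to ERCC counts. The causes of these shifts were not tested.

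For other TOP genes TMM factors gave 2 calls with serum in DMSO-treated and 2 in dTAG-treated cells, and leaving out a library gave 0 to 2 in both and 0 to 1 for loss of KAP1 without serum. For biogenesis genes TMM gave 12 calls in dTAG-treated cells, and the left-out libraries 13 to 27 in DMSO-treated cells, 7 to 23 in dTAG-treated cells, 0 to 3 for loss of KAP1 without serum and 0 to 1 with serum. For mTOR and MYC genes they gave 0 to 1 for loss of KAP1 without serum. For mitochondrial ribosomal protein genes TMM gave 7 calls in dTAG-treated cells, and the left-out libraries 9 to 15 in DMSO-treated cells. The labels give all groups replicates 1 to 3. Same-numbered libraries of different groups had correlations of -0.15 to 0.14 in their deviations, with 1 of 18 pairs over 0.1, so the numbers were not taken to pair the samples. With a replicate block 5 members were called with serum in DMSO-treated cells, 3 in dTAG-treated cells and 0 in the other comparisons. Changes under 1.2-fold are near what 3 libraries a group can show, with a median SE of 0.07 for members.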
